A study of Mus musculus with 2 samples.

Results

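The bone morphogenetic protein (BMP) ligands Bmp2, Bmp3, Bmp4, Bmp5, Bmp6 and Bmp7 and the secreted antagonists Nog, Grem1, Chrd and Fst were followed in mDE6 cells, a mouse line labelled as odontogenic epithelium. The members were every probe that carried 1 of these 10 gene names, out of 36693 gene names on the array, and 17 probes did so. Gene expression had been measured on 2 Agilent mouse arrays, 1 of control cells and 1 of cells treated with CHIR99021, both at 6 h. The label of the control names the vehicle DMSO, whereas the Methods call the cells untreated, and the label of the treated sample gives a dose of 5 mM, whereas the Methods give it in μM. Neither label names a genetic change, and both arrays hold the same cell line, so that the treatment is the only labelled difference. CHIR99021 inhibits the kinase GSK-3, which marks β-catenin for degradation, and so mimics an active Wnt/β-catenin pathway. Since each condition had 1 array, there was no replicate, no test and no p-value, and since both arrays lay on the same slide, the condition cannot be told apart from the place of the array on it.

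BMP ligands are secreted dimers that bind type I and type II serine/threonine kinase receptors. The receptors phosphorylate Smad1, Smad5 and Smad9, which enter the nucleus with Smad4 and turn on genes such as those of the Id family. Noggin (Nog), gremlin 1 (Grem1) and chordin (Chrd) bind BMP ligands outside the cell and keep them from their receptors, and follistatin (Fst) does so mainly for activins and for some BMPs. In the tooth germ, BMP4 is a classical signal between epithelium and mesenchyme, and BMP antagonists and Wnt signals help to set the number and shape of teeth.

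A spot's signal is its brightness after background subtraction by the scanner software, and the software marks whether it is well above background. Signals were divided by the 75th percentile of their array, 486.7 for the control and 469.17 for CHIR99021, and the ratio is CHIR99021 over control. A gene was called lower when its ratio was 0.66 or less with a Z-score of -2.0 or less, and higher when its ratio was 1.5 or more with a Z-score of 2.0 or more. The Z-score sets a log2 ratio against the 500 probes closest in mean signal, as the Methods do not define it. The error given with a log2 ratio comes from the error model of the scanner software and covers the array measurement only, not differences between cultures. Among 220 probes printed many times on each array, the median spot-to-spot SD of the log2 ratio was 0.03.

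The labelled cell type was set against marker genes. Of 7 general epithelial markers, the keratins and adhesion genes Krt8, Epcam and Cdh1 were not well above background on either array, and only Krt14 and Trp63 were on both. Of 8 odontogenic epithelial markers, Pitx1 and Dlx2 were well above background on both arrays, and Shh, Fgf8, Fgf9, Amelx, Ambn and Enam on neither. In contrast, 9 of 10 mesenchymal markers were well above background on both arrays, with signals of 52302 and 45883 for Vim and of 131814 and 122399 for the brightest Col1a1 probe in control and CHIR99021 cells. The data therefore go against a purely epithelial profile. The summed scaled signal of the mesenchymal markers was 995 in control and 933 in CHIR99021 cells, that of the epithelial markers 4.94 and 6.72, and that of the odontogenic epithelial markers 5.96 and 4.72. All 3 immune markers, Ptprc, Cd68 and Cd3e, were well above background on both arrays, Ptprc at 1 of its 7 probes, and summed to 5.00 and 5.50. Of 3 endothelial markers, 1 was well above background in control cells and 0 after CHIR99021, and they summed to 0.083 and 0.081. Col1a1 and Col1a2 make up most of the mesenchymal sum and Trp63 most of the epithelial one, and since probes differ in brightness the sums can be read between the arrays but not between the lists. The part of these markers in the results was not tested. In RNA of a whole culture, fewer cells of a type and less RNA per cell cannot be told apart.

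The probes that carry the findings are shown by their first 30 bases of 60, 5′ to 3′, with the position of the whole probe in mm9 as the array files give it. The array design assigns both Bmp4 probes and the Grem1 probe to the RefSeq mRNA of their gene. Whether a probe lies in coding sequence or in a UTR was not established here. The Bmp5 probes are both shown because they lie on opposite strands.
Bmp4 probe A_55_P2154387, chr14:47003391-47003450, minus strand: caaccacctacacataccacacaaactgct
Bmp4 probe A_51_P383741, chr14:47003802-47003861, minus strand: gtccaggaagaagaataagaactgccgtcg
Grem1 probe A_52_P481957, chr2:113589227-113589286, minus strand: tcctaaattaattcacttgaccgcgggtgt
Bmp5 probe A_65_P06881, chr9:75747841-75747900, plus strand: tcaagcaagaatccatccttactaactttc
Bmp5 probe A_51_P353264, chr9:75745727-75745786, minus strand: cagaaagttctaagtctgcaaaatattgta

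Of the 10 genes, Bmp4, Bmp6, Nog, Grem1 and Fst were well above background on both arrays, Bmp5 on the control array alone at 1 of its plus-strand probes, and Bmp2, Bmp3, Bmp7 and Chrd on neither. By the criteria, 1 of the 6 genes with a signal on at least 1 array was lower after CHIR99021, namely Bmp4, and 0 were higher. The paper's supplement lists both Bmp4 and Bmp5 among the genes lowered in these data. Its Z-score is not defined, so that the calls given here need not match its own. With a Z-score from a single mean and SD of all probes, the Z-score of Bmp4 was -0.72 and its call was lost, while Bmp5 was called lower. The number of lower members was 2, Bmp4 and Bmp5, with normexp background correction, without the filter on dim probes, by the ratio alone, with the median and MAD in the Z-score, and in the earlier rows of the array alone. Of all 18778 genes with such a signal, 3.24% were lower and 2.66% were higher. By the ratio alone, 1 of the 5 members measured on both arrays was lower and 0 were higher, against 5.78% and 5.06% of all 16839 genes measured on both. The median log2 ratio of these 5 members was -0.10, beside a median of 0.03 and an SD of 0.41 over all genes measured on both arrays. Of the log2 ratios of all genes measured on both arrays, 14.0% were lower than that of Bmp6, 32.8% lower than that of Nog and 61.1% lower than that of Fst.

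**Figure D1:**
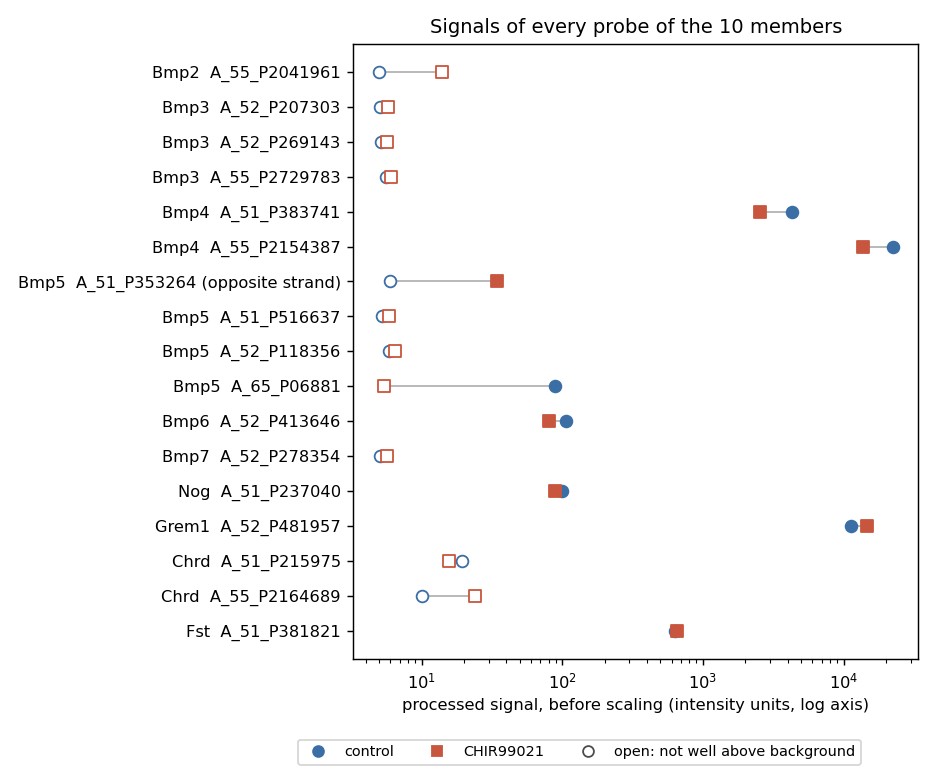
Processed signal before scaling (intensity units, log axis) of each of the 17 member probes on the control array (circles) and the CHIR99021 array (squares). Open symbols are not well above background, and the 9 probes open on both arrays lie between 4.99 and 24.1. Brightness is not comparable between probes.

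Among the ligands, Bmp4 was lower after CHIR99021 at both of its probes. At the brighter probe, A_55_P2154387, the signal was 22400 in control and 13803 in CHIR99021 cells, or 46.0 and 29.4 after scaling. The ratio was 0.639, that is 1.56-fold lower, with a log2 ratio of -0.65 and an error of 0.20. The Z-score was -2.82, and of the 500 probes closest in signal among those measured on both arrays, 0.4% had a lower ratio. At the dimmer probe, A_51_P383741, the signal was 4310 in control and 2533 in CHIR99021 cells. This probe gave a ratio of 0.610, or 1.64-fold lower, with a log2 ratio of -0.71, an error of 0.20 and a Z-score of -2.47. The 2 probes thus differed by 0.07 on the log2 scale, less than the error of either. They lie in distant rows of the array, 33 and 137 of 384, and no spot within 3 rows and columns of either had signal on only 1 array at over 4-fold. Of 139 genes that were lower at their brightest probe and had a second probe measured on both arrays, the second probe also met the criteria for 43 (30.9%) and had a ratio of 0.66 or less for 92 (66.2%). The threshold of 0.66 is -0.60 on the log2 scale, so that the distance of Bmp4 from it was within the error of the software. Without replicate arrays, the spread of Bmp4 between cultures is unknown.

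The other ligand measured on both arrays was Bmp6, a BMP best known for its role in iron balance and bone. Its single probe, A_52_P413646 (chr13:38591479-38591538), was dim on both arrays, at 106.9 in control and 81.2 in CHIR99021 cells. The ratio was 0.789, with a log2 ratio of -0.34, an error of 0.25 and a Z-score of -0.39, so that Bmp6 did not meet the criteria. Of the 500 probes closest in signal and measured on both arrays, 20.6% had a lower ratio. The probe lies in row 351, and 11 of its 47 nearby spots had signal on only 1 array at over 4-fold, whose part in the Bmp6 value was not tested.

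Bmp5, a ligand of the same subgroup as Bmp6 and Bmp7, gave signals that depended on the probe. Probe A_65_P06881 had a signal of 89.3 in control cells and was not well above background after CHIR99021, at 5.45. Its signal was therefore at least 3.27-fold lower after CHIR99021. The paper lists Bmp5 among its lowered genes, whereas the Z-score used here gave no call in the main setting. The value of 5.45 is a surrogate that the software sets, and the Z-score of -1.68, which did not meet the criteria, was computed from it and moved to -1.91 with a floor on low signals and to -3.57 with normexp background correction, where Bmp5 met them. The control spot was uneven, with a pixel SD over mean of 0.297 beside a median of 0.199 among 2027 spots of like signal in the earlier rows of the array, and lay at their 99.5th percentile. Whether this unevenness bears on the signal was not tested, and 0 of its 46 nearby spots had signal on only 1 array at over 4-fold. Neither of the other plus-strand probes of Bmp5 was well above background on either array, at 5.23 and 5.91 for A_51_P516637 and at 5.88 and 6.44 for A_52_P118356, in control and CHIR99021 cells.

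The remaining Bmp5 probe, A_51_P353264, ran the other way, with no signal well above background in control cells at 5.97 and a signal of 34.1 after CHIR99021. It was at least 1.496-fold higher, with a Z-score of 0.97. This probe is on the minus strand, whereas RefSeq places Bmp5 on the plus strand, and the array assigns it to a cDNA record rather than to the Bmp5 mRNA. Of 32950 probes with coordinates and a known gene strand, 278 (0.844%) lay on the opposite strand in this way. By its listed strand the probe matches the strand opposite to the Bmp5 mRNA, and its value is given apart from those of Bmp5. Signals on only 1 array were common, as 5.15% of the 13578 tested probes in the rows up to the middle of the array were well above background in control cells alone, and 1.89% in CHIR99021 cells alone. In the later rows, which held 14488 tested probes, the shares were 8.85% and 5.55%. Of these probes, the ones with a computed ratio of over 4-fold were 45 and 37 in the earlier rows and 563 and 537 in the later rows. A_65_P06881 lies in row 148 and A_51_P353264 in row 329.

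No probe of Bmp2, Bmp3 or Bmp7 was well above background on either array. Bmp2, a close relative of Bmp4, had 1 probe, with 4.99 in control and 13.9 in CHIR99021 cells. Bmp3, an atypical member that opposes other BMPs in bone, had 3 probes, all between 5.06 and 6.10. Bmp7, which acts widely in kidney, eye and tooth development, had 1 probe with 5.06 and 5.69. The lowest signal that counted as well above background was 23.7 on the control and 26.3 on the CHIR99021 array, so that no ratio was taken for these genes. Of the 34 values of member probes, 14 were surrogate values that the software put in place of the measured signal, and all 14 belong to probes of Bmp2, Bmp3, Bmp5 and Bmp7.

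**Figure D2:**
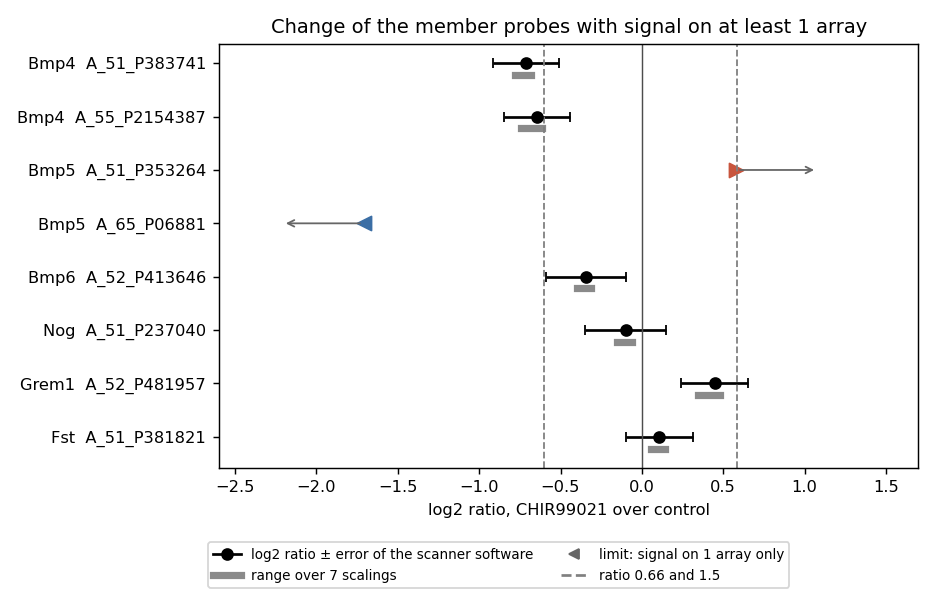
Log2 ratio of CHIR99021 over control for the 8 member probes with a signal well above background. Points are ratios with the software's error, grey bars show their range over 7 scalings of the arrays, triangles with arrows are limits for the Bmp5 probes with signal on 1 array, and dashed lines mark ratios of 0.66 and 1.5. Both Bmp4 points lie left of the lower line, at -0.71 and -0.65, and Grem1 lies left of the upper line, at 0.45.

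Among the 3 antagonists measured on both arrays, Grem1 had the ratio farthest from 1, and it stood above 1 where Bmp4 stood below. Gremlin 1 binds BMP2, BMP4 and BMP7 outside the cell. Its probe, A_52_P481957, had a signal of 11233 in control and 14767 in CHIR99021 cells, or 23.1 and 31.5 after scaling. The ratio was 1.36, with a log2 ratio of 0.45, an error of 0.20 and a Z-score of 1.24, so that Grem1 did not meet the criteria for a higher gene. Of the log2 ratios of all genes measured on both arrays, 90.4% were lower than that of Grem1 and 5.01% lower than that of Bmp4. Over 7 scalings its ratio ranged from 1.27 to 1.39 and did not reach 1.5 under any of them.

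The difference between the log2 ratios of Bmp4 and Grem1 is by construction the same under any scaling that moves all genes alike. It was -1.09 with an error of 0.29, which means that Bmp4 relative to Grem1 was 0.469 times its control value after CHIR99021. With the dimmer Bmp4 probe the difference was -1.16. This pair was chosen after its values were seen and is given as a description.

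Noggin and follistatin were close to a ratio of 1. Nog, at probe A_51_P237040 (chr11:89162849-89162908), had signals of 99.1 in control and 89.2 in CHIR99021 cells. Its ratio was 0.933, with a log2 ratio of -0.10, an error of 0.25 and a Z-score of -0.03. Fst, at probe A_51_P381821 (chr13:115244692-115245364, a span of 673 bases for a probe of 60, so that it is split in the genome), had signals of 633 and 658. Its ratio was 1.08, with a log2 ratio of 0.11, an error of 0.20 and a Z-score of 0.28. Both log2 ratios were smaller than their errors. Chrd was not well above background at either of its probes, with 19.5 and 15.6 at A_51_P215975 and 10.1 and 24.1 at A_55_P2164689, in control and CHIR99021 cells. No ratio was taken for it, and its highest value, 24.1, was under the lowest signal that counted as well above background on that array, 26.3.

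**Figure D3:**
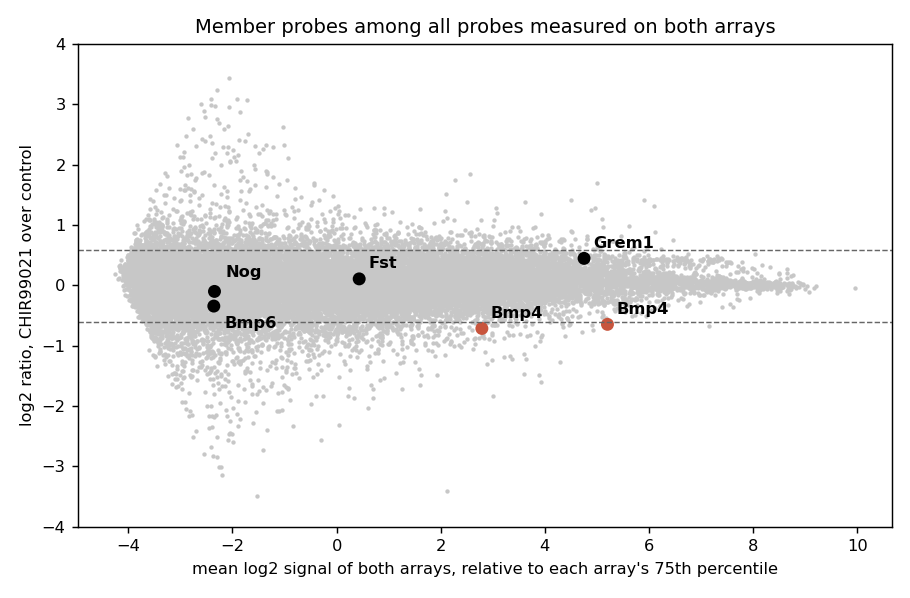
Log2 ratio of CHIR99021 over control against the mean log2 signal of both arrays relative to their 75th percentiles, for the 25025 probes measured on both arrays (grey). Member probes are named, dashed lines mark ratios of 0.66 and 1.5, and the probes of Bmp4 in red are the ones that met the criteria. The spread of the grey points narrows as the signal rises, from an SD of 0.66 among the 500 points closest to Bmp6 to 0.27 among those closest to the brighter Bmp4 probe.

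The promoters of 5 members, Bmp4, Bmp5, Bmp6, Grem1 and Chrd, were found in the RefSeq table of build GRCm38.p6. They were searched for CTTTGA and CTTTGT on both strands, the core letters bound by TCF/LEF factors, through which β-catenin acts. In the 250 bases before the start, Grem1 held 1 such match and the other 4 promoters held 0. Of all 32851 promoters of this length, 27.6% held at least 1. The Grem1 match is the reverse complement of CTTTGT and begins 188 bases before the start, shown in capitals within 30 bases of sequence. A match describes letters and not a bound site.
Grem1, chr2:113758819-113758848 in GRCm38.p6, minus strand: gggtgggtgtagACAAAGaggcgaggcggg

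The other genes of the pathway were taken from lists of 69 ligands, modulators, proteases, activins, receptors and SMADs, of which 48 had a signal on at least 1 array. By the criteria 4 of these were lower and 2 were higher after CHIR99021, where 3.24% of all genes were lower and 2.66% were higher. The lists were chosen with earlier results of these data known, so that these counts are a description. Of 15 further BMP and GDF ligands, 8 had a signal, 0 were lower and 1 was higher. The higher one was Gdf2, a circulating ligand also called BMP9, which went from 5.20, not well above background, to 117 and was at least 5.12-fold higher. It lies in row 245, among the later rows, and passed the filter through the CHIR99021 array alone, and its call rests on a Z-score of 2.54 computed against the dim control spot. Its CHIR99021 spot was uneven, with a pixel SD over mean of 0.556, and the part of this in the value was not tested. Gdf5, a ligand of joint formation, had a ratio of 0.482 at signals of 76.1 and 35.4, and its Z-score of -0.98 did not meet the criteria. Gdf1, at the brighter signals of 2984 and 4678, had a ratio of 1.63 and fell just short of the criteria with a Z-score of 1.99. Of the 7 further ligands measured on both arrays, 2 were below a ratio of 1, and the median log2 ratio was 0.24.

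Of 19 other extracellular antagonists and modulators, 11 had a signal, 2 were lower and 0 were higher. Crim1, a membrane protein that binds BMPs through cysteine-rich repeats, went from 1839 to 1082, with a ratio of 0.610 and a Z-score of -2.19. Nbl1, a secreted antagonist of the DAN family, to which gremlin also belongs, went from 6733 to 4177, with a ratio of 0.644 and a Z-score of -2.49. Sostdc1, a BMP and Wnt antagonist known for its role in teeth, was well above background on neither array.

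None of 5 ligand-processing proteases with a signal met the criteria, and Furin, which cleaves BMP precursors, had a ratio of 1.00. Of 3 activin genes with a signal, Inhba was higher and 0 were lower. Inhba encodes the activin A subunit that follistatin binds, and went from 8231 to 14692, with a ratio of 1.85 and a Z-score of 2.85. Its antagonist Fst stood at 1.08.

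Of 13 receptors and co-receptors with a signal, 1 was lower and 0 were higher. The lower one was Acvr2b, a type II receptor for activins and BMPs, from 254 to 65.0 with a ratio of 0.265 and a Z-score of -3.47. The other type II receptors did not meet the criteria, with ratios of 0.875 for Bmpr2 and 0.699 for Acvr2a at their brightest probes. Their other probes measured on both arrays were at 0.750 for Bmpr2 and 0.847 for Acvr2a. Among type I receptors, Bmpr1a was at 0.883, Acvr1 at 1.12 and Bmpr1b at 1.65, the last with signals of 122 and 194 and a Z-score of 1.46. Of 8 SMAD pathway genes, all had a signal and only Smad9 met the criteria, with a ratio of 0.493 and a Z-score of -2.02 at signals of 209 and 99.3. Smad1 was at 1.08 and Smad5 at 0.971 at its brightest probe, while the other Smad5 probe measured on both arrays was at 0.762.

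**Figure D4:**
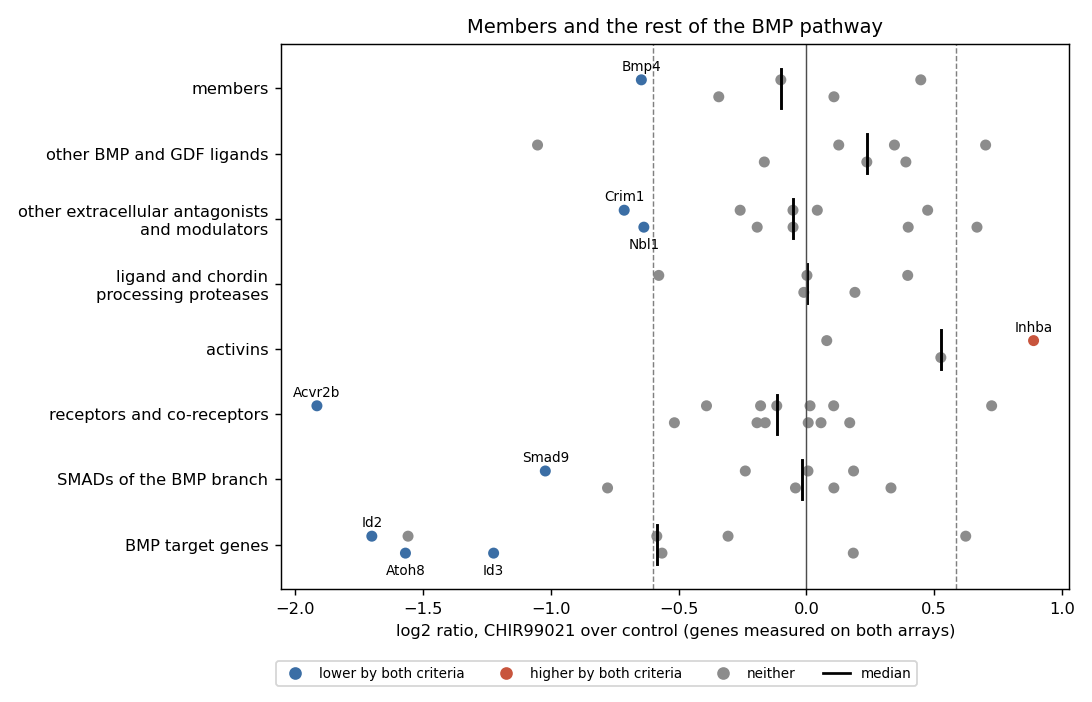
Log2 ratio of CHIR99021 over control for the genes measured on both arrays in each list of the BMP pathway, 1 point a gene, with the list's median as a black bar and ratios of 0.66 and 1.5 as dashed lines. Genes that met both criteria are coloured and named. BMP target genes have the lowest median, -0.59, and the lists were chosen with earlier results of these data known.

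Of 10 BMP target genes, all had a signal on at least 1 array, 3 were lower and 0 were higher, where 3.24% of all genes were lower and 2.66% were higher. The median log2 ratio of the 9 targets measured on both arrays was -0.59, beside 0.03 for all genes. This list was chosen with earlier results of these data known, so that its share and median are a description and no test. The paper's supplement also lists the 3 lower targets, Id2, Id3 and Atoh8, among the genes lowered in these data. Id3, a dominant-negative partner of basic helix-loop-helix factors, went from 7640 to 3153, with a ratio of 0.428 and a Z-score of -4.33. Id2 of the same family went from 1028 to 305, with a ratio of 0.308 and a Z-score of -4.54. Atoh8, a target of BMP-activated SMADs, went from 296 to 96.1, with a ratio of 0.337 and a Z-score of -3.17. Id1, at a ratio of 0.667, and Id4, at 0.340, did not meet the criteria, with Z-scores of -1.72 and -1.36. Msx1 and Msx2, homeobox genes that BMP4 maintains in the tooth germ, stood at 1.54 and 1.14 and did not meet them either, and Msx1 is also 1 of the mesenchymal markers. Of the 9 targets measured on both arrays, 7 were below a ratio of 1. Among them were Gata3 at 0.676 and Dlx5 at 0.809, neither of which met the criteria. Hey1, in row 300 among the later rows, had a signal in control cells alone. It was at least 2.27-fold lower and did not meet the criteria either.

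As a check of the treatment, 7 genes of Wnt feedback were read. Lef1, the partner of β-catenin on DNA, went from 239 to 690, so that it was 2.997 times its control value, and its Z-score was 4.09. Axin2, a direct target, was not well above background in control cells and was at least 1.66-fold higher, with a Z-score of 0.92. Rnf43, a feedback inhibitor of the pathway, was also higher, at 2.49 times its control value. Its signals were dim, at 69.3 and 167, and its Z-score of 2.01 was close to the cutoff. Lef1, Axin2 and Rnf43 lie in rows 294, 312 and 324, among the later rows. Nkd1, another feedback inhibitor, was at least 25.8-fold higher, but it had a signal in CHIR99021 cells alone, at an uneven spot of pixel SD over mean 0.401 in row 368, among the later rows, and its Z-score was computed against the dim control spot. Of 6 with a signal, 3 were higher, Nkd1 included, and 0 were lower.

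**Figure D5:**
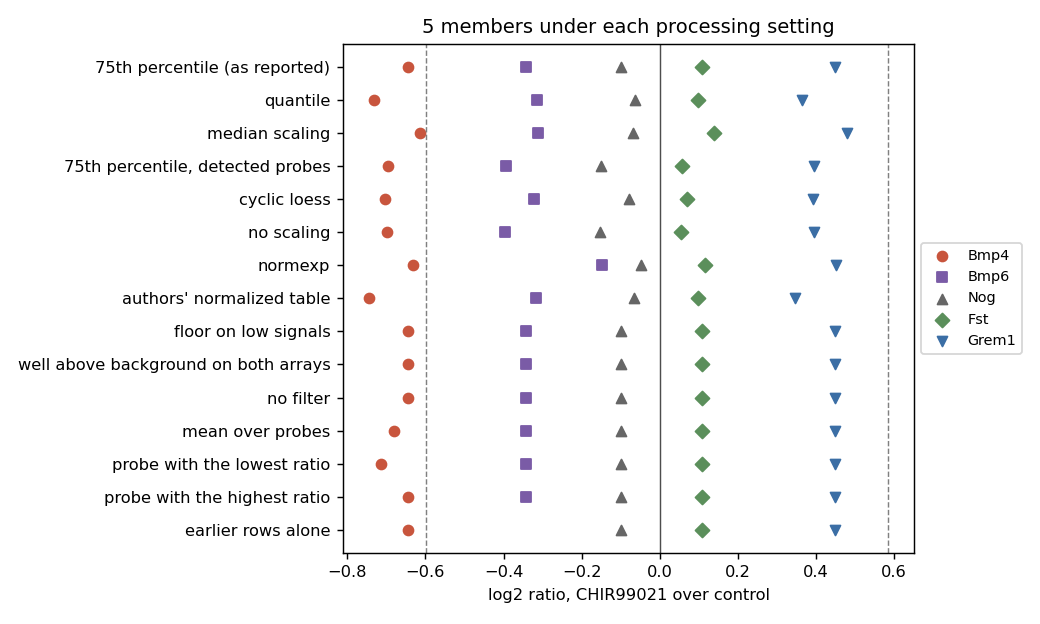
Log2 ratio of CHIR99021 over control for the 5 members measured on both arrays, under each way of scaling, filtering or choosing probes. The points keep their side of 0 in every row, Bmp4 from -0.74 to -0.61 and Grem1 from 0.35 to 0.48, and Bmp6 has no point where only the earlier rows of the array were used.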

How the data were processed

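RNA of mDE6 cells was labelled with Cy3 and hybridised to Agilent mouse arrays with 59305 spots, 1 array per condition. The authors deposited each spot's intensity after background subtraction, and a separate table of normalized intensity, which served as an alternative. The file headers name Feature Extraction 10.7.1.1 and mm9, the submitters' processing notes 9.5.1.1, and the Methods a human array. Outlier and control spots were left out, spots of a probe averaged, and each array divided by its 75th percentile, using Python 3.11.15, numpy 2.4.6 and pandas 2.3.3. Of 56605 probes, 28066 were well above background on at least 1 array. A gene took its brightest such probe. Limits were set against the higher of the dim spot's own value and the lowest signal well above background. The number of arrays limits the precision. Alternatives changed the scaling, the background correction (normexp in limma 3.58.1 under R 4.3.3, offset 50), filters, probe choice, Z-score and rows. The calls were tested on simulated data. Named were all members, genes of the other lists that met the criteria, and a fixed set of receptors, SMADs, Id genes, Sostdc1, Lef1 and Axin2; other list genes were named after their values were seen. The members and lists were chosen with earlier results of these data known. One marker of the odontogenic epithelium is not reported here. Figures were drawn with matplotlib 3.10.9.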

Additional observations from a re-analysis of the deposited data

How the results depend on the processing

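A single lower member, Bmp4, was found under all 7 scalings and with the floor on low signals, the filter on both arrays and each rule for several probes. The number was 2, Bmp4 and Bmp5, with normexp, without a filter, by the ratio alone, with the median and MAD, and in the earlier rows alone. With a single mean and SD taken from all probes it was 1, but this was Bmp5, as Bmp4 had a Z-score of -0.72. No member was higher under any setting. Bmp4, Bmp6, Nog, Grem1 and Fst kept their direction under every setting that gave a value, and Bmp4 ranged from -0.74 to -0.61. For Bmp5 the log2 ratio computed against the surrogate value of the dim spot, -3.98, is set by that value, and it was -1.71 with the floor on low signals, -1.35 with normexp and -0.71 with the mean over probes, which includes the minus-strand probe. It was above 0 only with the highest-ratio probe, that same one, which likewise had signal on 1 array. The difference between Bmp4 and Grem1, whose alternatives were chosen after seeing the data, was -1.16 to -1.08. Over all genes, 608 lower and 499 higher became 1815 and 1509 by the ratio alone, 1015 and 893 with the median and MAD, 722 and 786 without a filter, and 308 and 213 in the earlier rows, where 10860 genes were tested. Without a filter the median of all genes shifted by 0.16. No paired analysis was possible because there was a single array for the control and a single one for CHIR99021. For spots dimmer than the lowest signal well above background, 23.7 on the control and 26.3 on the CHIR99021 array, a fold is given only as a limit, while Z-scores use the value as computed.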
